A study of Mus musculus with 2 samples.

Results

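The genes described here are 38 genes of glucose breakdown and of the response to low oxygen, measured by single-cell RNA-seq in mouse synovium, the membrane around the joint cavity. They were taken by symbol from the deposited gene list, with at least 10 UMIs (unique molecular identifiers, each standing for 1 captured transcript) over both count matrices. All 38 listed genes met that rule, of 18309 genes that did so among the 32285 listed. Aldoa has a further row under another identifier with 5 UMIs, which was not counted as a member.

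There were 2 libraries, 1 from wild-type mice labelled MMS with the label D14 and 1 from wild-type control mice. The labels spell out neither MMS nor D14, and strain, age and sex are not stated in the sources used here. Each library pooled cells from 20 knees, digested with Liberase TL and DNase and run on the 10x Genomics 3' kit v3.1. With 1 library per group no difference can be tested, so each value below describes these libraries, and each interval covers counting error only.

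Glycolysis splits glucose to pyruvate in the cytosol. Glucose enters through the Slc2a transporters, is phosphorylated by hexokinase, committed by phosphofructokinase and carried through the enzymes from aldolase to pyruvate kinase, and the pyruvate is turned to lactate for export or burnt in mitochondria. When oxygen is short, the alpha subunits of the hypoxia-inducible factors escape hydroxylation by the Egln enzymes, pair with Arnt and raise transcription of many of these genes, of angiogenic and survival genes and of collagen prolyl hydroxylases. In the joint, the synovial lining borders a fluid with no vessels of its own, and glycolysis and low oxygen are long-studied features of inflamed synovium.

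After filtering, 3767 MMS and 6891 control cells were left, and the median cell held 17452 UMIs in MMS and 10990 in control. Clusters were named from marker genes, and a name ending in "-like" stands for such a class. Fibroblast-like cells numbered 1417 in MMS and 3105 in control, macrophage or monocyte-like cells 553 and 1204, endothelial-like cells 657 and 1692, and mural-like cells, which carry pericyte and smooth muscle markers, 183 and 146. These 4 classes had at least 50 cells in each library and were compared. The labels call the cells goblet cells, but 0 of 3767 MMS cells and 0 of 6891 control cells had UMIs of at least 2 of the 8 goblet markers, which allows shares of up to 0.0796% and 0.0435%. The libraries shared 6 cell barcodes, of which 4 were kept.

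The fibroblast-like class was made of different clusters in the libraries. In MMS, cluster 18 held 652 cells and cluster 13 held 502, whereas in control cluster 5 held 927 cells, cluster 14 held 668, cluster 6 held 604 and cluster 8 held 470. Cluster 13 was the main lining-like cluster, led by Prg4 and Col22a1, and it held 244 control cells. Cluster 18, led by Sfrp4, Mmp13 and Mmp3, held 59 control cells. Macrophage or monocyte-like cells lay in cluster 10, led by Vsig4 and Lyve1, in 436 MMS and 572 control cells, and in cluster 12, led by Cd209f and Pf4, in 52 MMS and 451 control cells. Because a class average mixes such clusters, every result was also computed within single clusters that held at least 50 cells of each library.

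Of these genes, 5 were at least 1.5-fold higher in MMS in all 4 classes (Slc2a1, Pkm, Slc16a3, Hif1a and Ankrd37) and 1 was lower in all 4 (Adm), out of 33 measured in all 4. Of all 11022 genes measured in all 4 classes, 1.28% were higher and 0.980% lower in each, and the classes share the same 2 libraries. To show sequence in front of a start of each, the bases before the start listed in RefSeq are printed, up to 250 and cut where an annotated exon of the gene begins. Pkm is left out, since a longer first exon covers most of its window. The printed bases come from the RefSeq promoter table of GRCm38.p6, which held 34 of the 38 genes, and are written 5′ to 3′ on the gene's own strand. In the GENCODE M21 gene models, the stretches of Slc16a3, Hif1a and Ankrd37 lie inside the gene, before a start later than the first. Those genes begin at chr11:120948480, chr12:73901375 and, on the minus strand, chr8:46005707. Capitals mark the core letters bound by hypoxia-inducible factors, ACGTG or GCGTG, read on either strand (CACGT and CACGC on the other), with overlapping matches counted separately. The printed stretches lie at chr4:119108495-119108710 (Slc2a1, plus strand), chr11:120948817-120949052 (Slc16a3, plus strand), chr12:73907617-73907866 (Hif1a, plus strand), chr8:45999868-46000100 (Ankrd37, minus strand) and chr7:110627407-110627656 (Adm, plus strand).
Slc2a1: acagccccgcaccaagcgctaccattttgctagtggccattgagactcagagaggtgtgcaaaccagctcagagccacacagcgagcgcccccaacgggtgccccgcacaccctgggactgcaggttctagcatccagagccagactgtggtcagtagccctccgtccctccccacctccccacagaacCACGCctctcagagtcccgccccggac
Slc16a3: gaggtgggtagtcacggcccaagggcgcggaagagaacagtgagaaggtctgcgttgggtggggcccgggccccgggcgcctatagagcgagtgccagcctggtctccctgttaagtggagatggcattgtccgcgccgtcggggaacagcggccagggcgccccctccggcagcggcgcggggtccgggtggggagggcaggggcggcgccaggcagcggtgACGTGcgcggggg
Hif1a: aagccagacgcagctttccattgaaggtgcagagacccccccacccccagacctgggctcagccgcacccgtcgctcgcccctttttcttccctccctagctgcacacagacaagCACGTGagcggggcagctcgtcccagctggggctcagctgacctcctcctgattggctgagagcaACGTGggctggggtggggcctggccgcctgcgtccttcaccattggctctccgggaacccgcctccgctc
Ankrd37: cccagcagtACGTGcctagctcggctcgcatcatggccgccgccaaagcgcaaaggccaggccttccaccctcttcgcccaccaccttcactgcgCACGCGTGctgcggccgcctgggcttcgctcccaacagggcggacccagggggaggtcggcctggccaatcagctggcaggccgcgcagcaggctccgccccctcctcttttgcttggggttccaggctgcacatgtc
Adm: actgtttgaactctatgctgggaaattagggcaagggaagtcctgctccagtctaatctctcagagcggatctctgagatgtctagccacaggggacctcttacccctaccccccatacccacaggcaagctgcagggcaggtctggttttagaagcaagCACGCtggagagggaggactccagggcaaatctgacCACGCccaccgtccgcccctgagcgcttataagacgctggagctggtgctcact

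The letters occurred 1 time for Slc2a1, 1 time for Slc16a3, 3 times for Hif1a, 3 times for Ankrd37 and 2 times for Adm in the printed stretches. In the full 250 bases they occurred 2 times for Slc2a1, 0 times for Pkm, 2 times for Slc16a3 and 4 times for Ankrd37. Over windows of 300 bases, which add the 50 bases after the start, 28 of the 34 genes held at least 1 match in the first listed window, or 82.4%. The same held for 43.8% of all 27025 genes in the table. The members' windows had a median GC content of 64.8%, against 52.7% over all genes, and the part of base composition in the match count was not tested. A match is a run of letters and not a measured binding site.

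Levels are given as CPM, the UMIs of a gene per 1000000 UMIs of its class and library. Endothelial-like and mural-like cells held most of Epas1, which encodes an alpha subunit of the hypoxia-inducible factors named for endothelium. Its level was 882 CPM in MMS and 912 CPM in control endothelial-like cells, and 739 CPM in MMS and 880 CPM in control mural-like cells. Fibroblast-like cells had 15.9 CPM of Epas1 in MMS and 16.5 CPM in control. Ndrg1, a stress-induced gene whose transcript rises in low oxygen, was likewise highest in endothelial-like cells among the 4 classes, at 530 CPM in MMS and 284 CPM in control.

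Fibroblast-like cells held most of the Adm transcripts, which encode the vasodilator peptide adrenomedullin. They accounted for 87.7% of the Adm UMIs of kept cells in MMS and 80.6% in control. P4ha2, a collagen prolyl hydroxylase subunit, stood at 70.1 CPM in MMS and 89.1 CPM in control fibroblast-like cells, against 3.22 and 3.85 CPM in macrophage or monocyte-like cells of MMS and control. Its highest level, 298 CPM, lay in an unnamed cluster of 292 MMS cells and 0 control cells led by Col11a1, Fmod and Acan, which carried tendon and cartilage markers. The same cluster had 429 CPM of Hif1a and 116 CPM of P4ha1. Car9, a membrane carbonic anhydrase widely used as a marker of low oxygen, was close to absent, with 2.86 CPM in MMS and 2.52 CPM in control macrophage or monocyte-like cells and at most 3 UMIs per library in each of the other 3 classes.

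Neutrophil-like cells, 310 in MMS and 20 in control, stood apart in glucose uptake. In MMS they had 193 CPM of Slc2a3, the high-affinity transporter of neurons and leukocytes, and 205 CPM of Slc16a3, the lactate exporter. They held 77.4% of all Slc2a3 UMIs of MMS cells and 31.2% of all Slc16a3 UMIs. MMS neutrophil-like cells also had 1763 CPM of Gapdh, 788 CPM of Gpi1 and 864 CPM of Pkm. The control cells of this class were too few to compare, and their neutrophil markers summed to 18125 CPM, against 228296 CPM in MMS. Macrophage or monocyte markers summed to 20423 CPM in those control cells and 7211 CPM in MMS ones, so the pair does not compare like cells. Adipocyte-like cells, 55 in MMS and 29 in control, had 221 CPM of Hk2 in MMS and 194 CPM in control, and 242 CPM of Slc16a1 in MMS and 98.3 CPM in control.

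**Figure D1:**
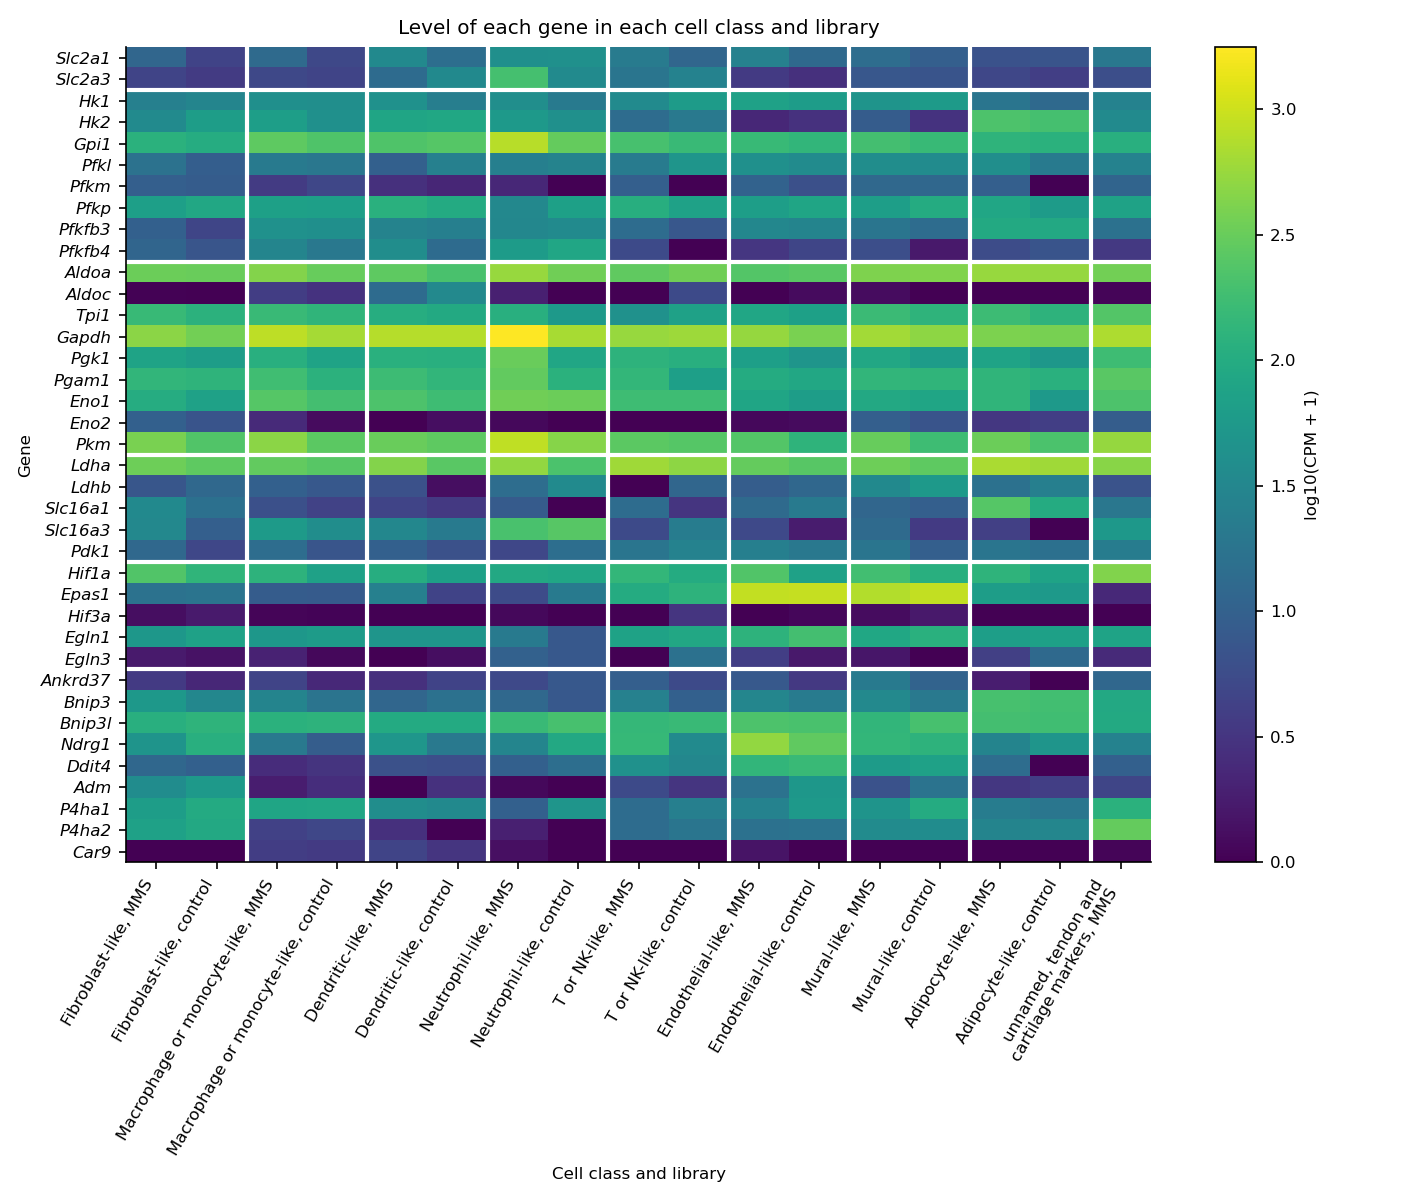
Level of each of the 38 genes (rows, ordered by role, white lines between roles) in each cell class and library (columns, MMS left of control), as log10(CPM + 1) with yellow high and dark blue low. The last column is the unnamed cluster with tendon and cartilage markers, which held MMS cells only. Epas1 is bright in endothelial-like and mural-like columns of both libraries, and Slc2a3 and Gpi1 are brightest in MMS neutrophil-like cells.

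Across the 4 classes compared, more of these genes were at least 1.5-fold higher in MMS than at least 1.5-fold lower. The same held for all genes in each class. In fibroblast-like cells 13 of 36 measured members were higher and 6 lower, against 17.8% and 16.0% of all 16043 genes measured there. The members' median log2 ratio of MMS over control was 0.31, and that of all genes was 0.06. In macrophage or monocyte-like cells 13 of 37 were higher and 1 lower (background 11.2% and 10.1%), with a median of 0.39 against 0.02. In endothelial-like cells 8 of 34 were higher and 5 lower (17.2% and 10.3%), with a median of 0.22 against 0.05. In mural-like cells 9 of 34 were higher and 4 lower (16.5% and 14.7%), with a median of 0.22 against -0.03. A member counted as measured with at least 10 UMIs over both libraries in the class, so members at low level could enter through the library where they were high. Below, ratios past 1.5-fold are given for members with 50 or more UMIs in their higher library. For those with fewer, UMIs or their upper limit are printed, with the rest here as MMS and control UMIs. In endothelial-like cells Hk2 (8 and 15) and Pfkfb4 (14 and 29) were lower. In mural-like cells Hk2 (28 and 3) and Pfkfb4 (18 and 1) were higher. In macrophage or monocyte-like cells Eno2 (12 and 4) and Slc16a1 (43 and 54) were higher.

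The 6 genes past 1.5-fold in every class did not all reach 50 UMIs in each, and the values below say where. The 17 members within 1.5-fold in every class where they were measured included 8 core enzymes of the pathway, Hk1, Gpi1, Aldoa, Tpi1, Gapdh, Pgk1, Pgam1 and Eno1, together with Ldha. The share of all genes within 1.5-fold in every class was not computed, so the count of 17 has no background beside it. All classes compared share the same libraries, so likeness between classes is not independent.

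**Figure D2:**
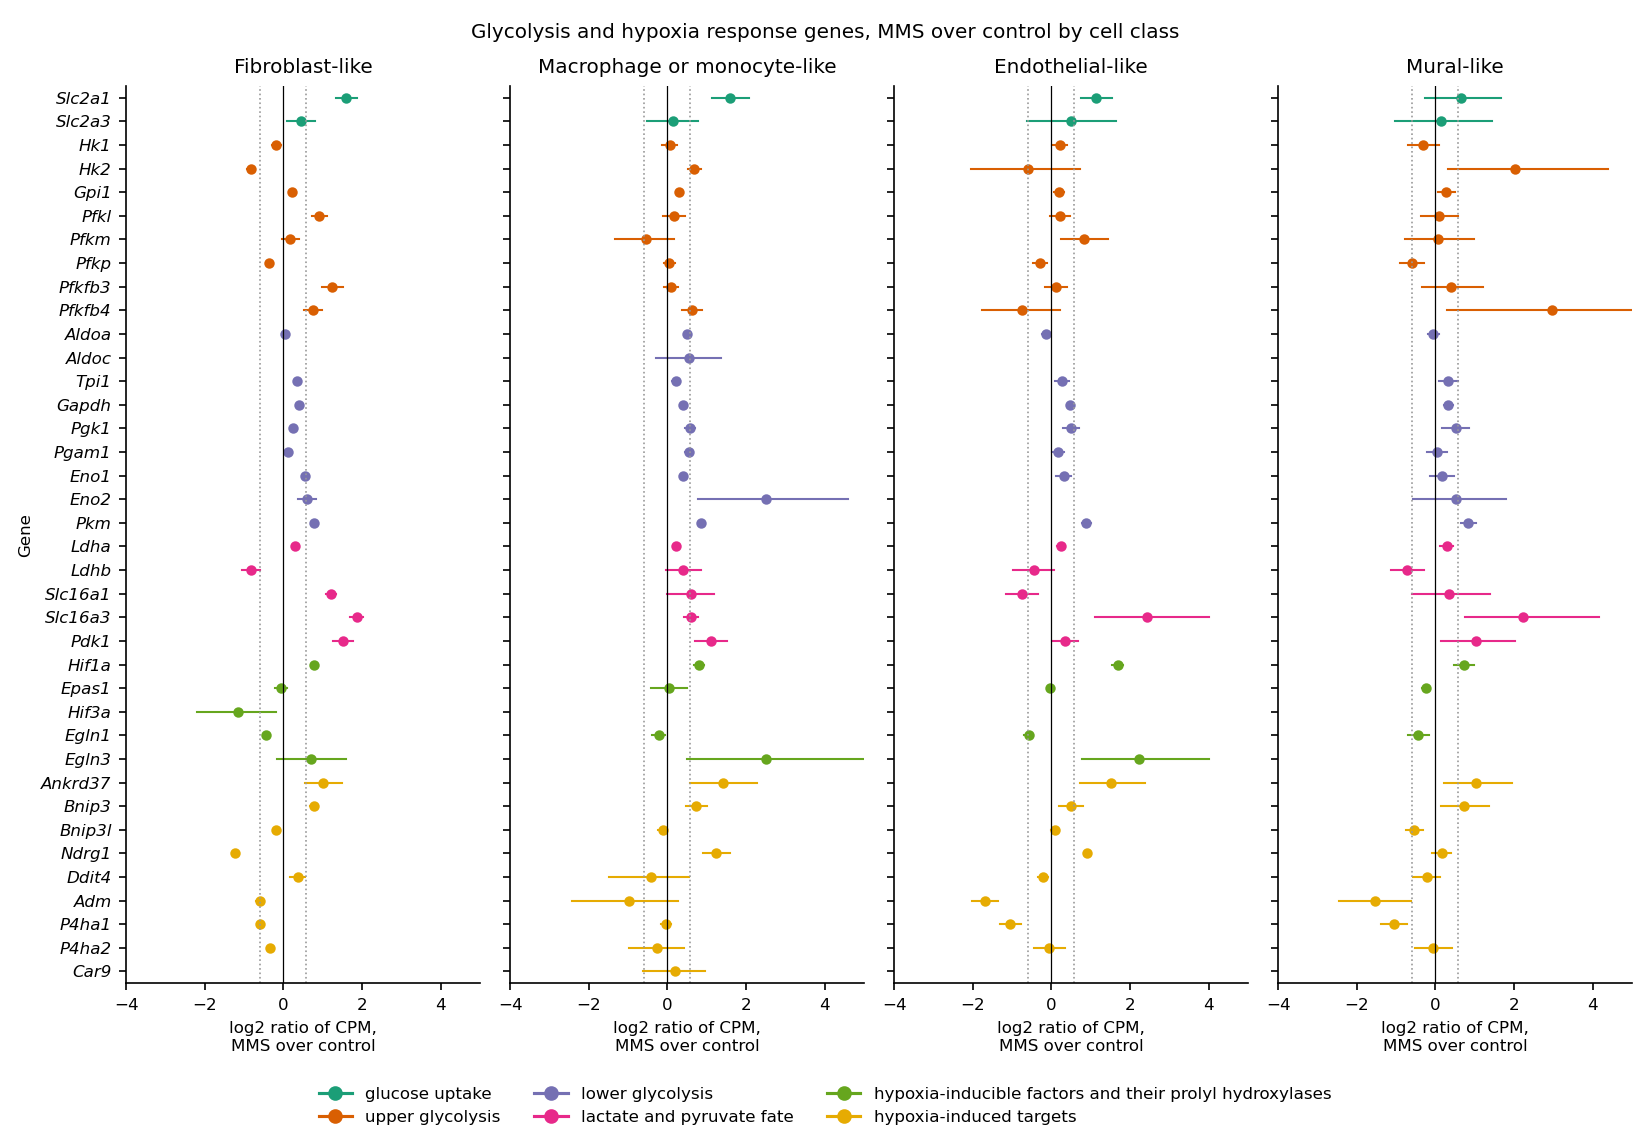
Log2 ratio of CPM, MMS over control, of each member (rows, coloured by role) in the 4 classes (panels). Points are values and bars exact 95% intervals of counting error, cut at the axis limits; dotted lines mark 1.5-fold, and members with under 10 UMIs in a class are not drawn. Pkm and Hif1a lie right of the upper dotted line in every panel, most enzymes of lower glycolysis lie between 0 and that line, and Ndrg1 lies far left in fibroblast-like cells and right in macrophage or monocyte-like and endothelial-like cells.

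Of the 2 glucose transporters, Slc2a1, the widely expressed basal transporter, was higher in MMS. It had 10.7 CPM in MMS and 3.54 CPM in control fibroblast-like cells, a log2 ratio of 1.59 (95% interval 1.33 to 1.86). Macrophage or monocyte-like cells had 12.3 CPM in MMS and 4.04 CPM in control (1.60, 1.14 to 2.08). Endothelial-like cells had 25.8 and 11.7 CPM in MMS and control (1.14, 0.76 to 1.53). Each of these intervals lies above 0. In mural-like cells the values were 13.3 and 8.48 CPM on 47 MMS and 13 control UMIs, and the interval of the log2 ratio, -0.26 to 1.66, includes 0. Slc2a3 differed by less than 1.5-fold in the 4 classes, with log2 ratios between 0.15 and 0.50.

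Upper glycolysis was uneven, with different isoforms past 1.5-fold in different classes. Hk2, the inducible hexokinase, had 35.2 CPM in MMS and 62.4 CPM in control fibroblast-like cells, a log2 ratio of -0.83 (-0.92 to -0.73). Macrophage or monocyte-like cells had 65.7 CPM in MMS and 41.1 CPM in control (0.68, 0.51 to 0.84). The fibroblast layers, lining-like and sublining-like cells, were themselves made of different subclusters in MMS and control. In MMS 419 of the 654 lining-like cells lay in a subcluster with 11 control cells, while 221 of the 252 control ones lay in a subcluster with 12 MMS cells. In MMS 381 of the 681 sublining-like cells lay in a subcluster with 29 control cells, so a layer ratio does not compare like cells. The 2 layers differed in direction, and the class value was lower than that of either. Lining-like cells had 20.1 CPM in MMS and 7.32 CPM in control (1.46, 1.01 to 1.94), and sublining-like cells had 55.0 CPM in MMS and 70.8 CPM in control (-0.37, -0.47 to -0.26). Hk2 was thus lower in lining-like than in sublining-like cells of both libraries, and lining-like cells were 654 of the MMS and 252 of the control fibroblast-like cells. Hk1, the constitutive hexokinase, had log2 ratios from -0.31 to 0.21 in the 4 classes.

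Among the phosphofructokinase genes, Pfkl had 15.8 CPM in MMS and 8.40 CPM in control fibroblast-like cells (0.91, 0.73 to 1.10). Within lining-like cells Pfkl had 14.4 CPM in MMS and 12.3 CPM in control (0.23), and within sublining-like cells 17.6 and 7.63 CPM in MMS and control (1.21). Pfkp was 1.5-fold lower in mural-like cells, at 65.9 CPM in MMS and 99.2 CPM in control (-0.59, -0.89 to -0.28). Pfkm had 9.41 CPM in MMS and 5.28 CPM in control endothelial-like cells (0.83, 0.23 to 1.45). Exons of Pfkm overlap Gm26513 on the same strand, so the source of its reads is uncertain. The bifunctional enzymes that set the phosphofructokinase activator fructose bisphosphate were also higher in fibroblast-like cells. Pfkfb3 had 8.97 CPM in MMS and 3.80 CPM in control (1.24, 0.97 to 1.51), and Pfkfb4 had 10.5 and 6.24 CPM in MMS and control (0.75, 0.53 to 0.97). Pfkfb4 was not higher within either layer: lining-like cells had 15.05 CPM in MMS and 16.3 CPM in control (-0.12), and sublining-like cells 4.67 CPM in each library. Macrophage or monocyte-like cells too had more Pfkfb4, 29.3 CPM in MMS and 19.0 CPM in control (0.62, 0.37 to 0.87). Gpi1, the isomerase between hexokinase and phosphofructokinase, had log2 ratios from 0.20 to 0.30. Part of its last 400 transcript bases, at least 100 of them, is near-identical (95% or more) in a transcript of Mrpl27, so its counts are uncertain.

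In lower glycolysis, Pkm, the pyruvate kinase gene of most tissues, was the only abundant enzyme past 1.5-fold over a whole class. Fibroblast-like cells had 394 CPM in MMS and 232 CPM in control (0.77, 0.73 to 0.80), and macrophage or monocyte-like cells 485 and 270 CPM in MMS and control (0.85, 0.78 to 0.91). Endothelial-like cells had 239 CPM in MMS and 130 CPM in control (0.88, 0.77 to 1.0), and mural-like cells 309 and 173 CPM in MMS and control (0.84, 0.64 to 1.04). The classes thus differed little from one another in this ratio.

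The other abundant enzymes of lower glycolysis were mostly higher in MMS by less than 1.5-fold. Gapdh had 477 CPM in MMS and 359 CPM in control fibroblast-like cells (0.41, 0.38 to 0.44), and its log2 ratio lay between 0.33 and 0.46 in the 4 classes. Eno1, an enolase, had 103 CPM in MMS and 70.5 CPM in control fibroblast-like cells (0.54, 0.48 to 0.61), and within sublining-like cells 121 CPM in MMS and 71.0 CPM in control (0.77, 0.68 to 0.85). Part of the Gapdh transcript end is near-identical in 105 other genes, 3 of them counted in the files, and part of the Eno1 end in Eno1b, so their counts are uncertain. Pgk1, the first ATP-yielding step, and Pgam1 lay nearest to 1.5-fold in macrophage or monocyte-like cells, at 0.57 (0.45 to 0.70) and 0.56 (0.46 to 0.65). Aldoa, the main aldolase, ranged from -0.13 in endothelial-like to 0.50 in macrophage or monocyte-like cells, and Tpi1 from 0.22 to 0.33. Eno2, the neuronal enolase, had 9.0 CPM in MMS and 5.94 CPM in control fibroblast-like cells (0.60, 0.37 to 0.83). Aldoc, the brain aldolase, was measured in macrophage or monocyte-like cells alone among the 4 classes, at 24 MMS and 31 control UMIs. Its highest level lay in dendritic-like cells, at 12.6 CPM in 28 MMS cells and 32.3 CPM in 198 control cells.

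Genes of lactate and pyruvate fate included the highest ratio of any member in fibroblast-like cells. Slc16a3, which exports lactate from glycolytic cells, had 31.4 CPM in MMS and 8.66 CPM in control (1.86, 1.70 to 2.03), and Slc16a1, which carries lactate either way, had 34.2 CPM in MMS and 14.7 CPM in control (1.21, 1.08 to 1.35). Pdk1, the kinase that turns off pyruvate dehydrogenase, had 11.4 CPM in MMS and 3.97 CPM in control (1.52, 1.27 to 1.77). Ldha, which makes lactate from pyruvate, differed less, with 334 CPM in MMS and 273 CPM in control (0.29, 0.26 to 0.33). Ldhb, whose subunit favours the reverse reaction, was lower, with 6.44 CPM in MMS and 11.4 CPM in control (-0.83, -1.05 to -0.61). Ldhb was near absent from lining-like cells of either library, at 0.785 CPM in MMS and 1.83 CPM in control. Within sublining-like cells it stood at 13.5 CPM in MMS and 13.0 CPM in control (0.06).

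Slc16a3 showed a like dependence on layer. In lining-like cells it had 44.2 CPM in MMS and 44.6 CPM in control (-0.01, -0.21 to 0.19), and in sublining-like cells 14.1 CPM in MMS and 3.16 CPM in control (2.16, 1.84 to 2.48). Slc16a1 was higher in both layers, whose subclusters differed between libraries, with 25.4 CPM in MMS and 6.99 CPM in control lining-like cells (1.86, 1.41 to 2.35), and 45.6 CPM in MMS and 15.9 CPM in control sublining-like cells (1.52, 1.36 to 1.67). In endothelial-like cells Slc16a1 was lower, at 12.1 CPM in MMS and 20.2 CPM in control (-0.74, -1.15 to -0.33). In macrophage or monocyte-like cells Slc16a3 had 58.1 CPM in MMS and 38.5 CPM in control (0.59, 0.42 to 0.77), and Pdk1 13.5 and 6.24 CPM in MMS and control (1.11, 0.71 to 1.51). In mural-like cells Pdk1 had 17.3 CPM in MMS and 8.48 CPM in control (1.02, 0.15 to 2.01). Ldhb was highest in mural-like cells among the 4 classes, at 33.7 CPM in MMS and 55.5 CPM in control (-0.72, -1.13 to -0.30). Slc16a3 rested on few UMIs in endothelial-like cells, 26 in MMS and 6 in control, and in mural-like cells, 43 in MMS and 4 in control.

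Of the factors themselves, Hif1a, the oxygen-regulated alpha subunit found in nearly all cells, was higher in each class. Endothelial-like cells had 228 CPM in MMS and 70.9 CPM in control (1.69, 1.55 to 1.83). Fibroblast-like cells had 228 CPM in MMS and 134 CPM in control (0.77, 0.72 to 0.82), macrophage or monocyte-like cells 125 and 72.0 CPM in MMS and control (0.80, 0.67 to 0.92), and mural-like cells 181 and 110 CPM in MMS and control (0.72, 0.48 to 0.98). Endothelial-like cells thus had the highest ratio of the 4 over whole classes, but that ratio lay above the one within each endothelial-like cluster, given below. The layers of the fibroblasts differed in its level, with 97.2 CPM in MMS and 80.3 CPM in control lining-like cells (0.27, 0.13 to 0.42), and, across the differing subclusters of that layer, 399 CPM in MMS and 142 CPM in control sublining-like cells (1.49, 1.44 to 1.54).

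Epas1 did not share this pattern. Its log2 ratios in the 4 classes lay between -0.25 and 0.04, and in lining-like cells it had 19.7 CPM in MMS and 58.4 CPM in control (-1.57, -1.77 to -1.36). The lining-like cells of MMS and control lay in different subclusters. The 8 mural markers summed to 173 CPM in MMS and 394 CPM in control lining-like cells, and their part in this ratio was not tested. Egln1, the main oxygen-sensing hydroxylase that marks the alpha subunits for breakdown, was lower in each class by less than 1.5-fold, with log2 ratios between -0.58 and -0.22. Egln3, a hydroxylase gene induced in low oxygen, had at most 29 UMIs per library in each class compared. Hif3a, which encodes a less studied alpha subunit, had 13 UMIs in MMS and 34 in control fibroblast-like cells and at most 1 UMI per library in each of the other 3 classes.

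The genes known as induced by low oxygen did not share a direction. Ankrd37, a small ankyrin-repeat gene, had 2.61 CPM in MMS and 1.30 CPM in control fibroblast-like cells (1.01, 0.54 to 1.5) and 20.1 CPM in MMS and 9.79 CPM in control mural-like cells (1.04, 0.22 to 1.95). It rested on 31 MMS and 22 control UMIs in macrophage or monocyte-like cells and on 44 and 19 UMIs in MMS and control endothelial-like cells. Bnip3, a mitophagy receptor, had 53.0 CPM in MMS and 30.9 CPM in control fibroblast-like cells (0.78, 0.68 to 0.87), 27.7 and 16.6 CPM in MMS and control macrophage or monocyte-like cells (0.74, 0.48 to 1.0), and 32.5 and 19.6 CPM in MMS and control mural-like cells (0.73, 0.14 to 1.36). In fibroblast-like cells the higher Bnip3 was not seen within lining-like cells, at 62.6 CPM in MMS and 67.0 CPM in control (-0.10), cluster 13 (-0.053) or cluster 3 (-0.14). Its relative Bnip3l differed by less than 1.5-fold in each class, from -0.54 to 0.09.

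Ndrg1 was lower in one class and higher in others, a difference that was not tested. It had 47.0 CPM in MMS and 110 CPM in control fibroblast-like cells (-1.23, -1.30 to -1.15). That class value was lower than the value of either layer. Lining-like cells had 25.1 CPM in MMS and 40.9 CPM in control (-0.70), and sublining-like cells 74.6 and 120 CPM in MMS and control (-0.69). Macrophage or monocyte-like cells had 19.3 CPM in MMS and 8.13 CPM in control (1.25, 0.90 to 1.59), and endothelial-like cells 530 and 284 CPM in MMS and control (0.90, 0.82 to 0.98). Fibroblast-like cells held 26.7% of all Ndrg1 UMIs of MMS cells and 62.4% of those of control cells. Mural-like cells had 141 CPM in MMS and 126 CPM in control (0.16, -0.08 to 0.41).

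P4ha1, a collagen hydroxylase gene, was lower in MMS in 3 of the 4 classes by at least 1.5-fold, and Adm in all 4, though not in every part of the fibroblast-like class. Endothelial-like cells had 15.8 CPM of Adm in MMS and 50.7 CPM in control (-1.68, -2.02 to -1.36), and fibroblast-like cells 36.9 and 55.7 CPM in MMS and control (-0.59, -0.69 to -0.50). Among fibroblast-like cells of the same depth the Adm ratio was 0.14, and within sublining-like cells it was 0.16. In macrophage or monocyte-like cells Adm had 7 UMIs in MMS and 26 in control, and the interval of its log2 ratio, -2.42 to 0.27, spans both directions. In mural-like cells Adm had 20 UMIs in MMS and 25 in control. P4ha1, which encodes its catalytic subunit, had 26.6 CPM in MMS and 55.0 CPM in control endothelial-like cells (-1.05, -1.31 to -0.78), 47.0 and 97.9 CPM in MMS and control mural-like cells (-1.06, -1.39 to -0.73), and 63.1 and 95.4 CPM in MMS and control fibroblast-like cells (-0.60, -0.67 to -0.52). P4ha1 in macrophage or monocyte-like cells had 80.0 CPM in MMS and 82.0 CPM in control (-0.03). Neither fibroblast layer passed 1.5-fold for P4ha1. Lining-like cells had 57.1 CPM in MMS and 70.4 CPM in control (-0.30), and sublining-like cells 71.2 and 99.7 CPM in MMS and control (-0.49). Ddit4, an inhibitor of mTOR signalling induced by stress, had log2 ratios between -0.43 and 0.36 in the 4 classes. Within lining-like cells Ddit4 had 9.60 CPM in MMS and 2.83 CPM in control (1.76, 1.05 to 2.57).

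The class values were compared with those inside single clusters, an alternative added after the clusters had been seen. In fibroblast-like cells the class ratios did not hold in every cluster. Within lining-like cluster 13, with 502 MMS and 244 control cells, 6 of 34 measured members were at least 1.5-fold higher and 4 lower, against 9.98% and 14.1% of all genes. Slc2a1 (1.08, 0.55 to 1.64), Pkm (0.68, 0.59 to 0.76) and Slc16a1 (1.82, 1.32 to 2.37) were higher there, with Hk2 (1.41, 0.91 to 1.95). Hif1a was at 67.5 CPM in MMS and 69.4 CPM in control (-0.04, -0.20 to 0.13). Lining-like cells lay in different subclusters in MMS and control, so ratios within cluster 13 may not compare like cells either. Within cluster 18, with 652 MMS and 59 control cells, 1 of 34 members was higher, Pfkm, and 2 were lower, Slc16a3 and Adm, against 21.5% and 7.57% of all genes. Pkm had 444 CPM in MMS and 449 CPM in control there (-0.02, -0.13 to 0.10), Hif1a 360 and 354 CPM in MMS and control (0.02, -0.10 to 0.15), and Slc2a1 10.3 and 13.6 CPM in MMS and control (-0.40, -1.04 to 0.31). Within cluster 3, with 52 MMS and 125 control cells, 6 of 29 were higher and 6 lower, against 21.3% and 16.9%.

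Within cluster 18, Pkm and Hif1a differed by less than counting error, at levels above those of the control fibroblast-like class. The cluster held 652 of the 1417 MMS but 59 of the 3105 control cells. Clusters were drawn on the expression of both libraries together, so cells within a cluster are alike in part by construction. When clusters with 90% or more of their cells from 1 library were left out, 5 of 35 members were higher and 7 lower in fibroblast-like cells, against 9.94% and 15.7% of all genes, and the median log2 ratio was 0.05. Over all sublining-like cells 14 of 36 members were higher and 2 lower, against 19.2% and 13.4% of all genes, and over all lining-like cells 8 of 34 were higher and 5 lower, against 12.8% and 11.2%. Adm was lower within clusters 13, 18 and 3, at -1.16, -1.19 and -1.65, whereas over all sublining-like cells it stood at 66.8 CPM in MMS and 59.7 CPM in control (0.16).

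The main cluster of macrophage or monocyte-like cells held a member count and median close to those of the class. Within cluster 10, with 436 MMS and 572 control cells, 12 of 37 members were higher and 1 lower, against 12.6% and 8.26% of all genes, and the median log2 ratio was 0.38. Slc2a1 had 11.6 CPM in MMS and 4.09 CPM in control (1.5, 0.89 to 2.14), Pkm 510 and 287 CPM in MMS and control (0.83, 0.75 to 0.91), Hif1a 133 and 73.4 CPM in MMS and control (0.85, 0.70 to 1.01), and Ndrg1 20.2 and 8.68 CPM in MMS and control (1.22, 0.79 to 1.66). Of the 9 members past 1.5-fold with at least 50 UMIs in the class, 6 were so in cluster 10, and Hk2 (0.56, 0.36 to 0.76), Pfkfb4 (0.49, 0.18 to 0.80) and Slc16a3 (0.08, -0.11 to 0.27) were not. Pgk1 passed 1.5-fold in this cluster and not in the class, at 109 CPM in MMS and 65.0 CPM in control (0.75, 0.59 to 0.92). Within cluster 12, with 52 MMS cells, Pkm had 218 CPM in MMS and 231 CPM in control (-0.08, -0.36 to 0.18), and 8 of 29 members were higher and 3 lower against 16.0% and 16.5%. Within cluster 19, led by Retnla, with 65 MMS and 181 control cells, 5 of 31 were higher and 5 lower against 17.1% and 13.0%.

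Hif1a was at least 1.5-fold higher in each of the 4 endothelial-like clusters, and Adm was lower in the 3 where it was measured. In cluster 1, led by Car4 and Cxcl9, with 208 MMS and 970 control cells, Hif1a had 150 CPM in MMS and 56.5 CPM in control (1.41, 1.15 to 1.66). In cluster 4, led by Selp and Vwf, with 259 MMS and 100 control cells, it had 308 CPM in MMS and 173 CPM in control (0.83, 0.58 to 1.09). The level in cluster 4 was above that of cluster 1 in both libraries, and cluster 4 held a larger part of the MMS than of the control endothelial-like cells. Adm was at -0.95 (-1.32 to -0.59) in cluster 1 and at -2.40 (-3.47 to -1.36) in cluster 4. The members at least 1.5-fold higher and lower were 9 and 5 of 33 in cluster 1 (background 16.0% and 10.1%) and 6 and 7 of 33 in cluster 4 (18.3% and 9.38%). They were 3 and 4 of 28 in cluster 0, led by Btnl9 (13.3% and 13.7%), and 6 and 0 of 25 in cluster 15, led by Sema3g and Gja5 (16.9% and 14.5%).

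**Figure D3:**
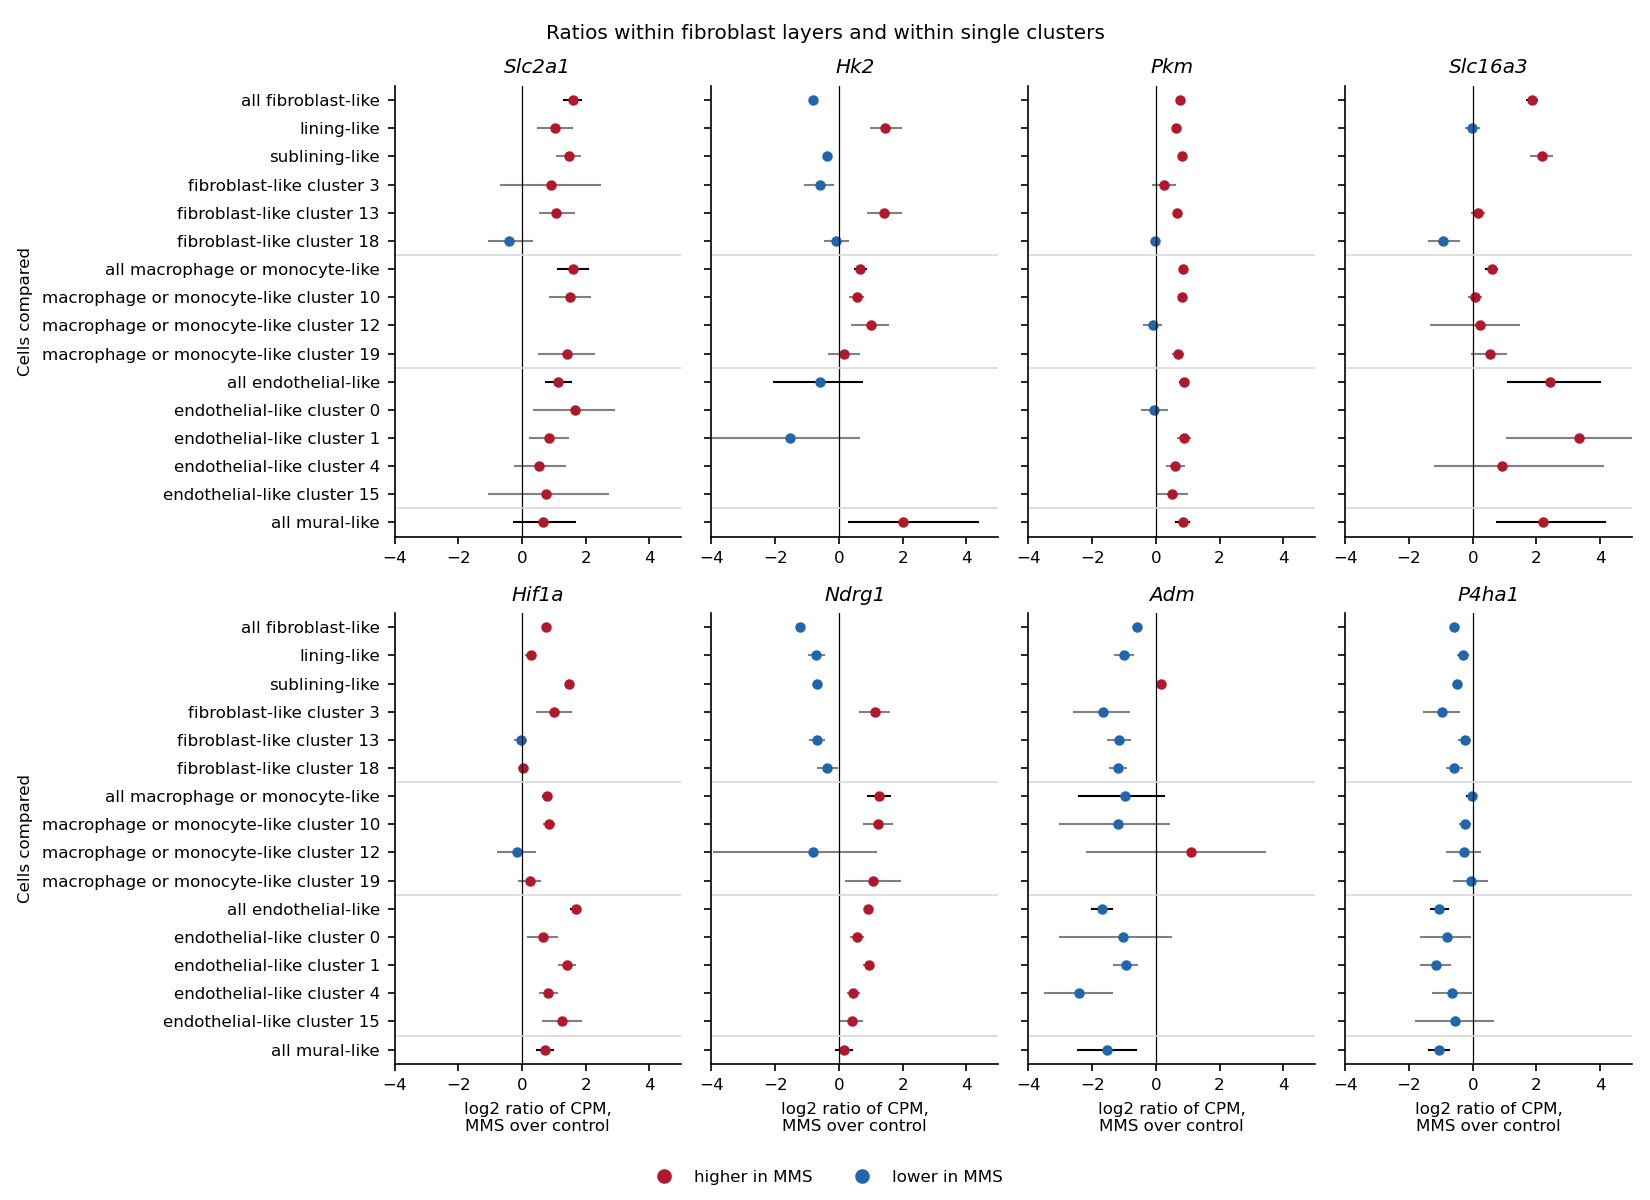
Log2 ratio of CPM, MMS over control, of 8 members (panels) in whole classes, in the fibroblast layers and within single clusters with at least 50 cells of each library (rows). Points are red above 0 and blue below, and bars are exact 95% intervals of counting error, black for whole classes and grey for parts of them, cut at the axis limits. Pkm and Hif1a sit at 0 in fibroblast-like cluster 18 and right of 0 in macrophage or monocyte-like cluster 10, Hk2 lies on opposite sides in lining-like and sublining-like cells, and P4ha1 lies left of 0 in every row.

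Other measures differed between the libraries alongside these genes, and their part in the results was not tested. The median depth of fibroblast-like cells was 27222 UMIs in MMS and 13729 in control, and that of endothelial-like cells 7522 in MMS and 3825.5 in control. Among fibroblast-like cells of the same depth 1 member was at least 1.5-fold lower in place of 6, and Adm had a log2 ratio of 0.14. The 15 immediate early genes, which also mark stress of dissociation, summed to 7973 CPM in MMS and 19787 CPM in control fibroblast-like cells, and 13 of 15 were at least 1.5-fold lower in MMS. In mural-like cells they summed to 10580 CPM in MMS and 22172 CPM in control, in macrophage or monocyte-like cells to 17447 and 18151 CPM in MMS and control, and in endothelial-like cells to 8872 and 11030 CPM.

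The 10 neutrophil markers summed to between 34.0 and 147 CPM in the 4 classes of MMS and between 1.02 and 10.8 CPM in those of control. The highest sum in each library was that of macrophage or monocyte-like cells. Their sum in MMS neutrophil-like cells was 228296 CPM. Mural-like cells carried 10 of 10 fibroblast markers in both libraries, summing to 33213 CPM in MMS and 7414 CPM in control. In fibroblast-like cells these markers summed to 105581 CPM in MMS and 88531 CPM in control. The 8 mural markers summed to 10056 CPM in MMS and 7506 CPM in control mural-like cells. Mural-like cells also carried 8 of 8 endothelial markers, which summed to 2107 CPM in MMS and 3752 CPM in control mural-like cells, against 7954 CPM in MMS and 9181 CPM in control endothelial-like cells. The endothelial markers were lower in MMS. Of 34 members measured in mural-like cells, 11 were lower in MMS at any fold, Epas1, P4ha1 and Adm among them, and 23 were higher. The part of the fibroblast and endothelial markers in the mural-like values was not tested. The 6 erythroid markers summed to 499 CPM in MMS and 242 CPM in control fibroblast-like cells, 410 and 238 CPM in MMS and control macrophage or monocyte-like cells, 833 and 156 CPM in MMS and control endothelial-like cells, and 718 and 65.9 CPM in MMS and control mural-like cells. In lining-like cells they summed to 245 CPM in MMS and 3.49 CPM in control. Their part in the results was not tested.

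Per cell, the summed level of the 17 enzymes from hexokinase to lactate dehydrogenase (the members of upper and lower glycolysis without Pfkfb3 and Pfkfb4, plus Ldha and Ldhb) overlapped widely between libraries. Its median was 2003 CPM in MMS fibroblast-like cells, with quartiles of 1518 and 2548, and 1704 CPM in control ones, with quartiles of 1340 and 2075. Macrophage or monocyte-like cells had a median of 2832 CPM in MMS and 2247 CPM in control, endothelial-like cells 1659 and 1476 CPM in MMS and control, and mural-like cells 2186 and 2141 CPM in MMS and control. Neutrophil-like cells had the highest median, 5545 CPM in MMS, and 2733 CPM in the 20 control cells, which were not like cells by their markers. Within fibroblast-like cluster 18 the median was 2074 CPM in MMS and 2453 CPM in control.

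**Figure D4:**
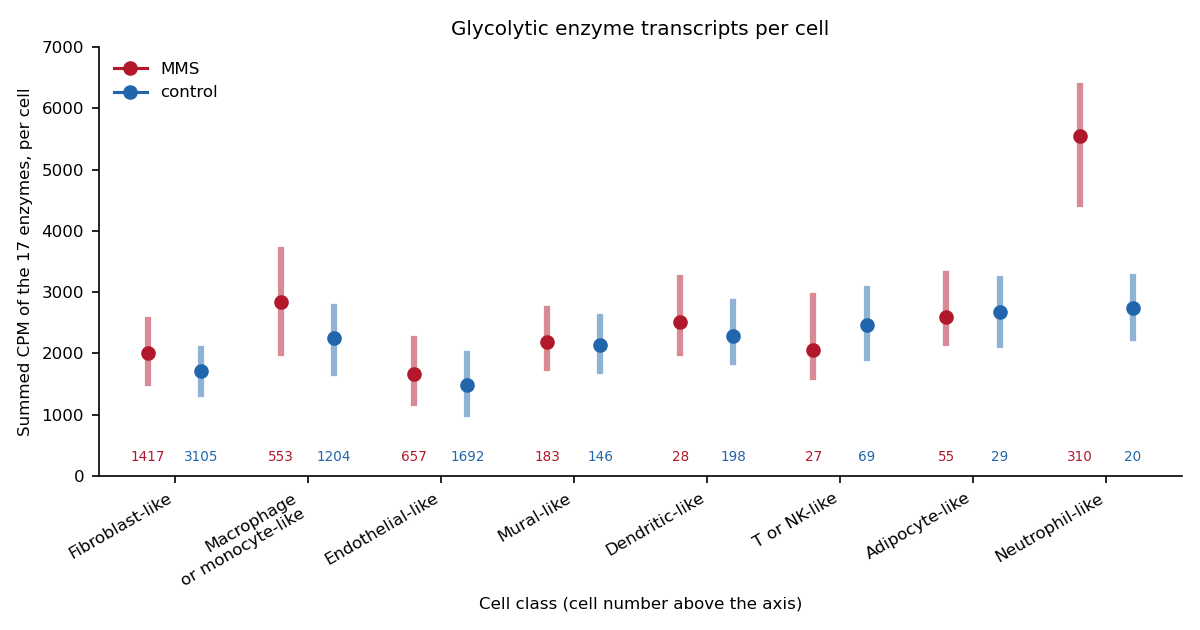
Summed CPM of the 17 enzymes per cell by class, MMS left of control, with points at the median over cells, bars from the lower to the upper quartile and cell numbers above the axis. The quartile ranges of MMS and control overlap in each class but the neutrophil-like cells, whose MMS median of 5545 CPM is the highest shown. The control cells of that class carried more macrophage or monocyte than neutrophil marker UMIs, so its pair does not compare like cells.

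Further genes of these pathways, which are no members, were counted by class. Of 28 other genes of the hypoxia-inducible factor pathway, 9 were at least 1.5-fold higher and 6 lower of 28 measured in fibroblast-like cells, 6 and 3 of 22 in macrophage or monocyte-like cells, 6 and 4 of 26 in endothelial-like cells, and 9 and 4 of 26 in mural-like cells. The shares over all genes, higher and lower, were 17.8% and 16.0%, 11.2% and 10.1%, 17.2% and 10.3%, and 16.5% and 14.7% in the same order of classes. The highest ratios with at least 50 UMIs in fibroblast-like cells were those of the collagen crosslinker Lox, at 403 CPM in MMS and 63.1 CPM in control (2.68), and of the mitochondrial Higd1a, at 372 CPM in MMS and 92.2 CPM in control (2.01). The lowest were those of Pgf, a vascular growth factor, at 2.08 CPM in MMS and 12.1 CPM in control (-2.54), and Igfbp3, at 9.43 CPM in MMS and 38.2 CPM in control (-2.02). Hmox1, the haem-degrading enzyme, in macrophage or monocyte-like cells had 733 CPM in MMS and 229 CPM in control (1.68). In endothelial-like cells Angptl4, an inhibitor of lipoprotein lipase, had 102 CPM in MMS and 587 CPM in control (-2.52).

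The tricarboxylic acid cycle, where pyruvate is burnt, had few genes past 1.5-fold. Of its 16 genes, 0 passed 1.5-fold in either direction in fibroblast-like, macrophage or monocyte-like and mural-like cells, and 1 did in endothelial-like cells, Suclg2, at 35.1 CPM in MMS and 22.6 CPM in control (0.63). Over all genes the shares higher and lower in those classes, in that order, were 17.8% and 16.0%, 11.2% and 10.1%, 16.5% and 14.7%, and 17.2% and 10.3%. All genes include those with few UMIs, and genes of like level were not set apart. The medians of the 16 log2 ratios were 0.16, 0.08, 0.01 and 0.16 in fibroblast-like, macrophage or monocyte-like, endothelial-like and mural-like cells. Among the 7 genes of the pentose phosphate pathway, which branches from glycolysis to make NADPH, Pgd had 179 CPM in MMS and 115 CPM in control macrophage or monocyte-like cells (0.63), and Rpia had 10.9 CPM in MMS and 24.8 CPM in control fibroblast-like cells (-1.19). Of 25 other glycolysis genes, 6 of 23 measured were higher and 2 lower in fibroblast-like cells, against 17.8% and 16.0% of all genes, and 0 of 19 passed 1.5-fold in macrophage or monocyte-like cells, against 11.2% and 10.1%. In fibroblast-like cells Bpgm, which makes bisphosphoglycerate, had 19.1 CPM in MMS and 8.70 CPM in control (1.13), and Pdk4, the pyruvate dehydrogenase kinase of fasting, had 3.29 CPM in MMS and 8.44 CPM in control (-1.36).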

How the data were processed

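The authors deposited raw UMI counts, unnormalized, in 1 matrix per library. Cell Ranger is given as 5.0.0 in the file headers and as 2.0.0, with build mm10, in the submitters' processing notes. The deposited barcode lists held 5286 MMS and 8810 control barcodes with 85597195 and 84900876 UMIs.

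Cells were kept with at least 1000 UMIs, 500 genes and no more than 10% of UMIs mitochondrial. Scrublet, run per library in scanpy 1.11.5 at an assumed doublet rate of 0.06, marked 104 of 3871 MMS and 184 of 7075 control cells, which were dropped. Cells were clustered together without batch integration (2000 variable genes, 30 components, 15 neighbours, Leiden resolution 1.0), giving 27 clusters, of which 4 stayed unnamed. A class took a cluster where the mean relative level of its markers was at least 0.7 and led by 0.15. Both thresholds were chosen with the clusters in view.

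Counts were summed per class and library and scaled to 1000000 (CPM), so a level depends on the class total. Ratios have exact conditional binomial 95% intervals. A count of 0 took a floor of 3 counts, and gave no ratio where that bounded nothing. No test was made, since each group has 1 library. Counts of members called are read against all genes with at least 10 UMIs. Members and gene lists were chosen with earlier results of these data known. Members are described in full where they passed 1.5-fold with at least 50 UMIs in the higher library; of other pathway genes, the 2 highest and 2 lowest ratios per list and class were eligible. Members at lower counts, cluster values and the genes that lead clusters were picked after their values were seen. Gene models are those of GENCODE M21 (GRCm38). The ratio step was tested on simulated sums with 200 changed genes. Scaling factors of edgeR 4.0.16 and DESeq2 1.42.0, other filters, clusterings and cell subsets were tried as alternatives.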

Additional observations from a re-analysis of the deposited data

Results flagged for a closer look

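Members past 1.5-fold in opposite directions in a pair of classes were picked out, and the difference between the classes was not tested. For Ndrg1, the log2 ratio of MMS over control in fibroblast-like cells was -1.23, lower by 2.47 than the 1.25 of macrophage or monocyte-like cells (a difference of -2.47) and by 2.12 than the 0.90 of endothelial-like cells (a difference of -2.12). For Hk2, fibroblast-like cells at -0.83 and macrophage or monocyte-like cells at 0.68 differed by -1.50. For Slc16a1, fibroblast-like cells at 1.21 and endothelial-like cells at -0.74 differed by 1.95. Within fibroblast-like cluster 3 the Ndrg1 ratio was 1.13, and within lining-like cells the Hk2 ratio was 1.46, so neither difference between classes holds for all fibroblast-like cells.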

How the results depend on the processing

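No paired analysis was possible because each group has 1 library. Of 742 member ratios under alternatives, 717 kept their direction, and 24 of 42 ratios did so under each alternative that gave a value. In fibroblast-like cells the count of members higher was 5 without clusters of mostly 1 library, 8 within lining-like cells, 1, 6 and 6 within clusters 18, 13 and 3, and that of members lower was 1 at the same depth, 2 within sublining-like cells, 3 with layers weighted equally and 2 within cluster 18. With a fold of 2, higher and lower counts were 6 and 2 in fibroblast-like cells, 6 and 0 in macrophage or monocyte-like cells, 5 and 2 in endothelial-like cells and 5 and 2 in mural-like cells. In macrophage or monocyte-like cells the lower count was 2 at the same depth, with 500 UMIs per cell, a 5% mitochondrial limit, resolution 0.5 or clustering without these genes, 3 with doublets kept or cells weighted equally, and 0 with 50 UMIs per gene or in the higher library. Clusters 12 and 19 gave 8 and 5 higher and 3 and 5 lower. In endothelial-like cells, 50 UMIs per gene gave 3 lower, 50 UMIs in the higher library 5 higher and 3 lower, cluster 0 gave 3 higher and cluster 15 gave 0 lower. In mural-like cells, 50 UMIs in the higher library gave 5 higher.

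Reversed log2 ratios were, within lining-like cells, Hk2 1.46, Pfkfb4 -0.12, Slc16a3 -0.013 and Bnip3 -0.10; within sublining-like cells, Ldhb 0.056 and Adm 0.16; at the same depth, Adm 0.14; and with layers weighted equally, Pfkfb4 -0.089. Within cluster 3 they were Bnip3 -0.14, Ndrg1 1.13 and the median -0.091, within cluster 13 Hk2 1.41, Hif1a -0.039 and Bnip3 -0.053, and within cluster 18 Slc2a1 -0.40, Pfkl -0.11, Pkm -0.016, Ldhb 0.55, Slc16a3 -0.92, Ankrd37 -0.15 and the median -0.10. Macrophage or monocyte-like cluster 12 gave Pkm -0.084, Hif1a -0.15, Ndrg1 -0.81 and a median of -0.085, cluster 19 gave Pdk1 -0.42, and endothelial-like cluster 0 gave Pfkm -0.82, Pkm -0.042 and a median of -0.025. The cause was not tested. Alternatives within single clusters, with unnamed clusters added and with 50 UMIs in the higher library were chosen after seeing the data. Each value rests on 1 pooled library per group, so its spread between mice is unknown.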
